A study of Mus musculus with 9 samples.

Results

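The cytosolic ribosome is built from ribosomal RNA and a fixed set of proteins, most of which are encoded by genes named Rpl for the large subunit and Rps for the small subunit. Members were the genes whose symbol is Rpl or Rps, with an optional p, followed by a number and at most the letters a, x or l, so that pseudogene symbols and the Rps6k kinases did not enter. The rule found 82 genes, 51 of the large and 31 of the small subunit, in 81 loci of 48254 loci in all. A locus here is a gene or a group of genes that share an entry in at least 1 tumor. It used gene names and no measured value.

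RNA of 9 orthotopic Hepa1-6 tumors was sequenced, 3 from each of 3 groups, and each gene was given as FPKM, a count of fragments scaled to transcript length and to the mapped fragments of the library. Hepa1-6 is a mouse hepatoma line, and tumors were grown in the liver of male C57BL/6 mice that were 6 to 8 weeks old when purchased. One group was injected with PBS, and the other two, called anti-PD-1 antibody-responsive and anti-PD-1 antibody-nonresponsive, with clone RMP1-14, an antibody against the checkpoint receptor PD-1, in all groups 5 times at intervals of 4 days, on day 10 through day 26, with collection on day 27. The nonresponsive tumors were the 3 largest and the responsive tumors the 3 smallest after antibody treatment, and tumors of intermediate size were left out, so that the antibody-treated groups were set by tumor size. Whole tumors were used after the surrounding tissue was removed, and in such bulk RNA fewer cells of a type and less RNA per cell cannot be told apart. The labels name each tumor as a sample of its own but name no extraction or sequencing batch.

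Cells make ribosomal proteins in matched amounts, and their mRNAs are among the most abundant of dividing cells. Most of these mRNAs start with a C and a run of pyrimidines, the terminal oligopyrimidine (TOP) motif, through which the mTOR pathway and the RNA-binding protein Larp1 control their translation and stability. Transcription of ribosome genes is raised by Myc, and Rpl5, Rpl11 and Rpl23 also bind Mdm2, the ubiquitin ligase of p53. The introns of many ribosomal protein genes carry small nucleolar RNAs, which guide the modification of ribosomal RNA.

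Start-site sequence is shown for some of the members that the results below turn on, so TOP starts among them do not stand for their share among all members. Rps24 and Rpl24, named below, are not shown and had no TOP start. Sequences came from RefSeq promoters of mouse build GRCm38.p6, matched by symbol for 60 of the 82 genes, and each stretch holds 15 bases before the annotated start and 15 from it, 5′ to 3′. A TOP start was counted where the annotated first base was C and the next 4 bases were each C or T. The capitals mark the run of C and T that begins with a C at the annotated start. Rps6 (chr4:86857353-86857382, minus strand), Rps15a (chr7:118116133-118116162, minus strand), Rpl15 (chr14:18270972-18271001, minus strand), Rps18 (chr17:33955651-33955680, minus strand) and Rps21 (chr2:180257364-180257393, plus strand) had a TOP start. Rpl23 (chr11:97782425-97782454, minus strand), Rpl5 (chr5:107900513-107900542, plus strand) and Rpl36al (chr12:69184053-69184082, minus strand) had none at the annotated start and are shown all in lower case.
Rps6: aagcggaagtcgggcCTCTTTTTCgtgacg
Rps15a: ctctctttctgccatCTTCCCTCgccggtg
Rpl15: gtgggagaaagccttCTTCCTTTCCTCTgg
Rps18: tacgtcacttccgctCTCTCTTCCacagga
Rps21: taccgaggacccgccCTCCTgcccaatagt
Rpl23: acgaggtccggtcacgtggctgagtgggcg
Rpl5: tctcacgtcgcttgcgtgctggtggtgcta
Rpl36al: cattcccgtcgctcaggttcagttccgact

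By this rule 14 of the 60 matched members had a TOP start (23.3%), against 3.01% of 27025 gene symbols and 2.51% of 32851 promoters in the table. The 13 tested loci with a TOP start had a median ratio of 3.56 between the highest and the lowest tumor, and the 42 without one a median ratio of 2.62. A looser feature chosen after the sequences were seen, a run of at least 8 bases of C or T anywhere in the 30 bases, was present in 43.3% of the matched members and 13.9% of all symbols. A start that the annotation places a few bases off counts as no TOP start, so these shares describe the annotated starts.

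Ribosomal protein mRNAs were abundant in every tumor. Of the 81 loci, 77 passed the filter in each comparison, which asked that 3 or more of the 6 tumors reach an FPKM of 1, and 75 stayed at or above an FPKM of 100 in all 9 tumors. The mean FPKM of these 75 loci ranged from 426 to 5104, with a median of 1292. Rps6, the small-subunit protein phosphorylated by the S6 kinases, had the highest mean FPKM at 5104. It was followed by the joined entry of Rpl41, the shortest ribosomal protein, and Rps26 at 4348, then by Rps18 at 4196, Rps27 at 4186 and Rpl13a at 3978. Rplp1, one of the acidic proteins of the stalk that recruits translation factors, reached 3839, Rps14 reached 3277 and Rps10 reached 2934.

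The other end of the range was held by paralogs. The lowest mean FPKM among tested loci were those of Rpl6l at 3.66 and Rps4l at 16.0, followed by Rps27l at 426, Rpl36al at 514 and Rpl35 at 565. Rpl10l and Rpl32l were listed at 0 in every tumor. Rpl3l, a paralog of Rpl3 known from muscle, lay between 0 and 1.07, and Rpl39l, a paralog known from testis, between 0 and 1.25. Reads of such near-identical copies, and of the many processed pseudogenes of this family, could have been split between copies by the authors' counting, so that values of Rps4l and Rpl6l in particular are uncertain.

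Of the 82 genes, 47 were named alone in every tumor and 35 shared an entry with another gene in at least 1 tumor, 26 of them in all 9. For most the partner was a small nucleolar RNA or a predicted gene inside the locus, and 12 members shared an entry with another kind of gene, among them Rps18 with H2-K1 and H2-K2 in 1 tumor and Rpl41 with Rps26 in 1 tumor. The values of a shared entry cannot be assigned to one of its genes. Genes joined in any tumor were summed in all 9, so a value printed under a member's name is that of its whole locus. The values of Rps18 thus include H2-K1 and H2-K2 in every tumor.

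The summed share of ribosomal protein entries varied widely within each group. Their part of the FPKM of all entries that name a gene was 26.8%, 16.5% and 20.3% in PBS replicates 1 to 3. In the nonresponsive tumors it was 9.46%, 14.6% and 19.9%, and in the responsive tumors 9.995%, 23.7% and 12.2%. The group means were 21.2% ± 5.18 (SD, n = 3), 14.6% ± 5.21 and 15.3% ± 7.34 in the same order, and the ranges of the 3 groups overlapped. Entries that name no gene held 19.2% to 81.5% of the summed FPKM and were left out of this denominator.

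**Figure D1:**
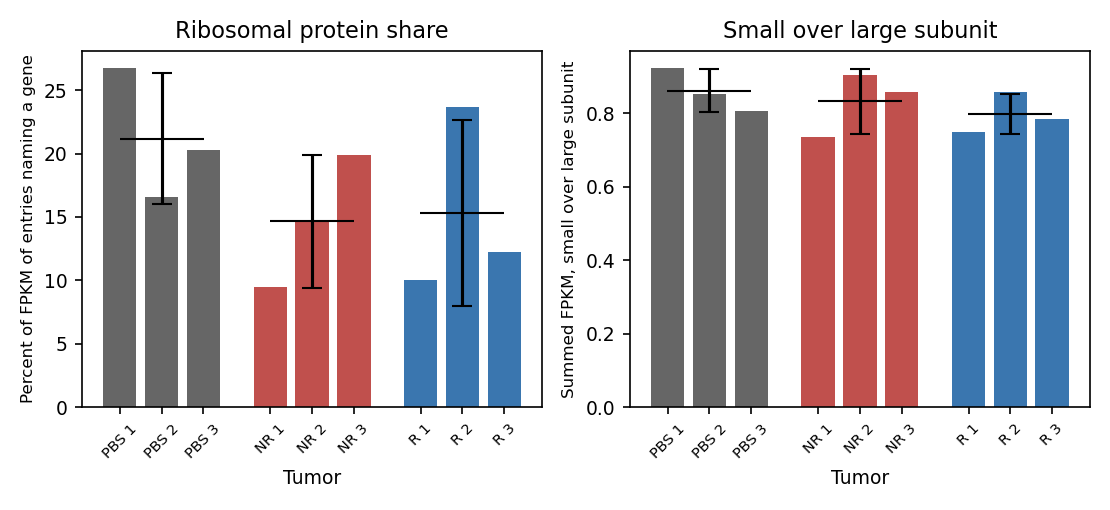
Share of the FPKM of entries naming a gene that belonged to ribosomal protein entries, in percent (left), and summed FPKM of small-subunit over large-subunit entries (right), for PBS, nonresponsive (NR) and responsive (R) tumors. Bars are single tumors and black lines with whiskers are group means ± SD (n = 3); shares run from 9.46% in NR 1 to 26.8% in PBS 1, and tumors of one group differ as much as the groups do.

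The balance of the subunits moved less than their amount. The summed FPKM of small-subunit entries was 0.925, 0.854 and 0.808 times that of large-subunit entries in the PBS tumors, 0.735, 0.906 and 0.859 times in the nonresponsive tumors and 0.751, 0.857 and 0.785 times in the responsive tumors. The means were 0.862 ± 0.0589, 0.833 ± 0.0886 and 0.798 ± 0.0544 (SD, n = 3), and the groups overlapped. In the 1 tumor where Rpl41 and Rps26 shared an entry, the whole entry was counted with the large subunit, which lowered that tumor's ratio. The lowest ratios belonged to nonresponsive replicate 1 and responsive replicate 1, which also had the lowest shares.

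Most members rose and fell together from tumor to tumor, across the borders of the groups. After each of the 77 loci was set to its own mean of log2(FPKM + 1) over the 9 tumors, the median locus lay at 0.56, 0.00 and 0.34 in PBS replicates 1 to 3, at -0.77, -0.27 and 0.21 in the nonresponsive tumors and at -0.51, 0.58 and -0.18 in the responsive tumors. The lowest and highest tumors thus belonged to nonresponsive replicate 1 and responsive replicate 2, 1.35 apart on the log2 scale. Large-subunit and small-subunit members gave nearly the same series, from -0.77 to 0.57 and from -0.75 to 0.59.

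Counted locus by locus, nonresponsive replicate 1 held the lowest value for 61 of 77 loci, nonresponsive replicate 2 for 9 and responsive replicate 1 for 5. Responsive replicate 2 held the highest value for 37 loci and PBS replicate 1 for 36. The lowest value fell in nonresponsive replicate 1 or responsive replicate 1 for 85.7% of the ribosomal protein loci and for 45.8% of the 10188 loci that reached an FPKM of 1 in every tumor. The highest fell in PBS replicate 1 or responsive replicate 2 for 94.8% of ribosomal protein loci and 38.7% of all those loci. These tumors were picked out after the values were seen, so the shares are a description.

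**Figure D2:**
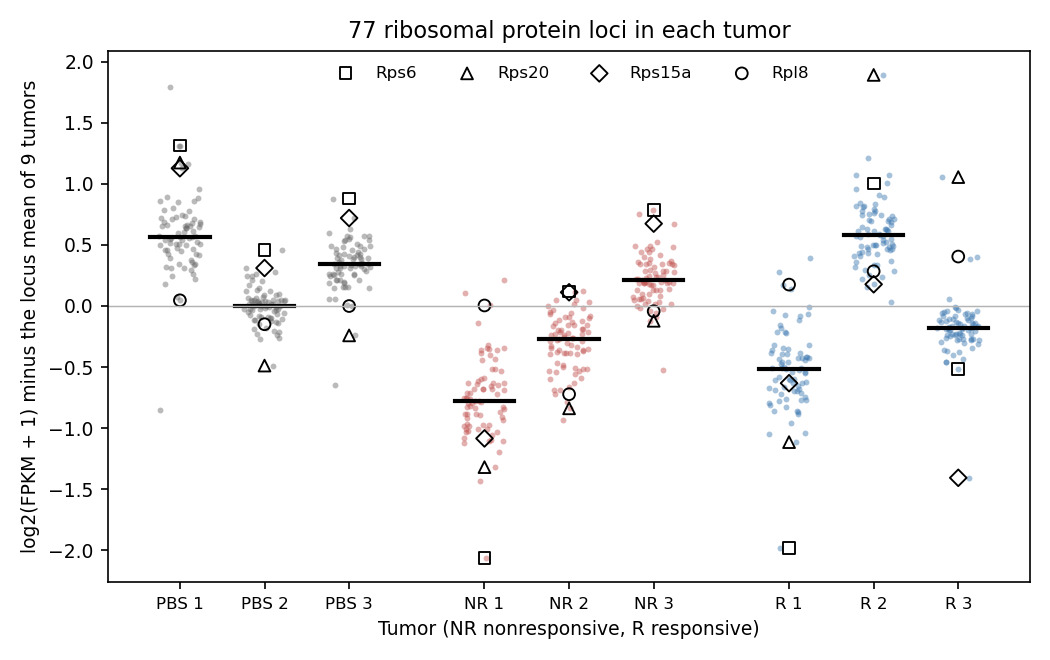
Deviation of each of 77 ribosomal protein loci from its own mean over the 9 tumors, in log2(FPKM + 1), by tumor (NR, nonresponsive; R, responsive). Points are loci, black bars are medians, and open symbols mark Rps6, Rps20, Rps15a and Rpl8; the medians run from -0.77 in NR 1 to 0.58 in R 2, while Rps20 lies above the median in R 3 and Rps15a far below it.

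The size of these swings differed between members. Across the 77 loci the highest tumor exceeded the lowest by a median ratio of 2.81, from 1.56 to 10.4. The SD of log2(FPKM + 1) over the 9 tumors had a median of 0.51 for the ribosomal protein loci and 0.35 for all 10188 loci. Among abundant loci the family was not wide. The 74 ribosomal protein loci with a mean FPKM of at least 500 had a median ratio of 2.81, and the other 144 loci at that level a median ratio of 3.74.

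Rps6 had the widest range. Its FPKM was 9753, 5381 and 7221 in the PBS tumors, 937, 4262 and 6781 in the nonresponsive tumors and 993, 7865 and 2747 in the responsive tumors. It was lowest in nonresponsive replicate 1 and responsive replicate 1, and the groups overlapped. In PBS replicate 1 the lower confidence bound that the authors' program gave for this entry was 0, so the highest value is poorly determined.

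Rps20, a small-subunit protein, departed from the common pattern. Its FPKM was 2197, 694 and 823 in the PBS tumors, 389, 544 and 895 in the nonresponsive tumors and 449, 3615 and 2024 in the responsive tumors. PBS replicate 1 and responsive replicates 2 and 3 were high and the other tumors low, with no value between 895 and 2024. The entry of Rps20 also named a predicted gene in all tumors.

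Rps15a, a small-subunit protein, departed in the opposite way in 1 tumor. Its FPKM was 5398, 3063 and 4069 in the PBS tumors, 1164, 2669 and 3941 in the nonresponsive tumors and 1593, 2793 and 931 in the responsive tumors. Responsive replicate 3 was the lowest of all 9 tumors for this locus alone among the 77.

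Several large-subunit members varied widely as well. Rpl23 had an FPKM of 2785, 747 and 1187 in the PBS tumors, 405, 465 and 771 in the nonresponsive tumors and 441, 1308 and 665 in the responsive tumors. PBS replicate 1 stood above all other tumors, and the entry also named other genes in 2 tumors. These genes were summed into the values of Rpl23 in every tumor. Rpl7 ranged from 574 in nonresponsive replicate 1 to 3007 in PBS replicate 1, and Rpl36a from 501 to 2200 in the same tumors.

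Other members were steady. Rps27l, a paralog of Rps27 known as a p53 target, ranged only from 337 to 525, a ratio of 1.56, the smallest of the 77 loci. Rpl7a had a ratio of 1.71, Rps24 of 1.74, Rpl36al of 1.798 and Rpl11 of 1.91. Rpl8, which lies near the peptidyl transferase center, had an FPKM of 1181, 1031 and 1143 in the PBS tumors, 1147, 693 and 1110 in the nonresponsive tumors and 1291, 1393 and 1515 in the responsive tumors. It was the only tested locus with its highest value in responsive replicate 3, and its entry named other genes in 2 tumors. These genes, Commd5 and Zfp7 among them, were summed into the values of Rpl8 in every tumor.

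**Figure D3:**
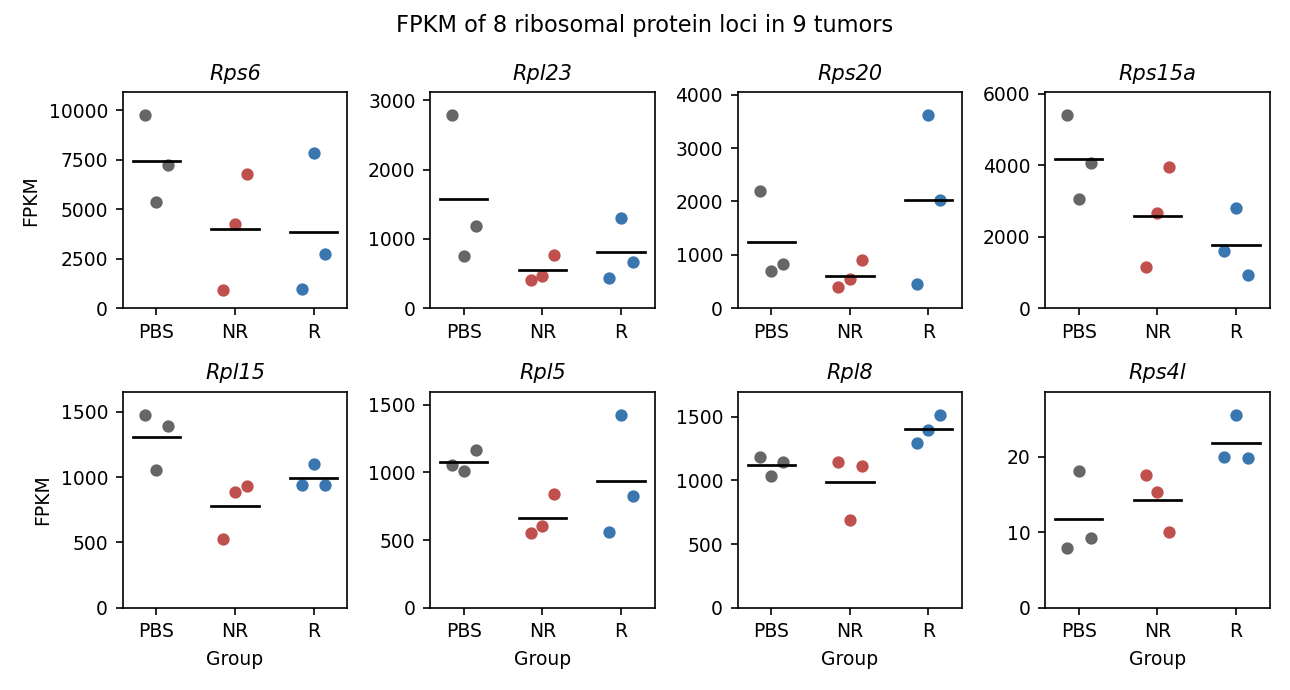
FPKM of Rps6, Rpl23, Rps20, Rps15a, Rpl15, Rpl5, Rpl8 and Rps4l in PBS, nonresponsive (NR) and responsive (R) tumors, each panel with its own axis from 0. Points are tumors in replicate order and black lines are group means (n = 3); all PBS tumors exceed all NR tumors for Rpl15 and Rpl5, and all R tumors exceed the tumors of both other groups for Rpl8 and Rps4l.

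The first comparison, of nonresponsive with PBS tumors, asked how the large antibody-treated tumors differed from untreated ones. The mean of log2(FPKM + 1) was lower in the nonresponsive tumors for 76 of the 77 loci, where 55.6% of all 12663 loci tested were lower. The median difference of the 77 loci was -0.56, against -0.06 over all loci. It was -0.55 for the 47 large-subunit loci and -0.57 for the 31 small-subunit loci, the joined entry of Rpl41 and Rps26 being counted in both. For 55 of the 77 loci the difference exceeded the larger of the group SDs. This count was made for ribosomal protein loci alone in each comparison, with no share over all loci beside it.

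No ribosomal protein locus passed an adjusted p of 0.05 in limma, where the smallest was 0.70 and 0.0395% of all loci passed. At an unadjusted p under 0.05, 2 loci were lower, where 1.66% of all loci were, and 0 were higher, where 1.57% were. An ordinary test per locus found 2 at that level and none after adjustment. These were not the same 2 loci, as they were 1 of each subunit, where both limma loci were of the large subunit. For 7 loci all 3 nonresponsive tumors lay below all 3 PBS tumors, where 4.86% of all loci did: Rpl5, Rpl15, Rpl24, Rpl29, Rps18, Rps21 and Rps24. The reverse held for 0 loci, where 3.23% of all loci did.

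Rpl5, which carries the 5S ribosomal RNA into the large subunit, was one of the loci with an unadjusted p under 0.05. Its FPKM was 1055, 1008 and 1168 in the PBS tumors and 553, 601 and 839 in the nonresponsive tumors, and the groups did not overlap. The difference was -0.72 (SE 0.253, limma adjusted p = 0.70). The other was Rpl23, with the values given above, a difference of -1.36 (SE 0.543, limma adjusted p = 0.70) and groups that overlapped.

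The other large differences from PBS were -1.27 for Rps6 (SE 0.779), -0.998 for Rpl36a (SE 0.456), -0.98 for Rpl7 (SE 0.532) and -0.91 for Rps20 (SE 0.543), none with an unadjusted p under 0.05. Rpl15 had FPKM values of 1476, 1054 and 1390 in the PBS tumors and 527, 888 and 931 in the nonresponsive tumors, a difference of -0.77 (SE 0.319). Rps4l was the only locus with a positive difference, 0.32 (SE 0.362).

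The count rested on single tumors. Without nonresponsive replicate 3, the tumor with the highest ribosomal protein level of its group, 29 loci were lower at an unadjusted p under 0.05 (9.81% of all loci were) and 66 did not overlap (24.6%), with a median of -0.83 and a smallest adjusted p of 0.32. The median was -0.34 without nonresponsive replicate 1 and -0.43 without PBS replicate 1. Without PBS replicate 1, PBS replicate 3, nonresponsive replicate 1 or nonresponsive replicate 2 in turn the count at an unadjusted p under 0.05 was 0. Without PBS replicate 2, 61 loci did not overlap downward (13.4%).

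The next comparison, of responsive with PBS tumors, asked how the small antibody-treated tumors differed from untreated ones and used the same PBS tumors as the first. The median difference of the 77 loci was -0.34, against -0.11 over all 12715 loci tested, and 70 of the 77 were lower, where 58.4% of all loci were. It was -0.34 for the large subunit and -0.33 for the small subunit. For 8 loci the difference exceeded the larger of the group SDs.

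No ribosomal protein locus passed an adjusted p of 0.05 in limma, where the smallest was 0.25 and 0.149% of all loci passed. At an unadjusted p under 0.05, 1 locus was lower, where 10% of all loci were, and 1 was higher, where 9.12% were. The ordinary test per locus found 1 at that level, a large-subunit locus that was higher. The 2 loci that limma found were both of the small subunit, so the ordinary test found neither. Groups did not overlap for 2 loci that were lower, Rps15a and Rpl29, where 17% of all loci were, and for 2 that were higher, Rpl8 and Rps4l, where 11.8% were.

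Rps15a was the lower locus, at a mean FPKM of 4177 ± 1171 in the PBS and 1772 ± 944 in the responsive tumors (SD, n = 3). The difference was -1.34 (SE 0.492, limma adjusted p = 0.25). Rps6 had a slightly larger difference of -1.38 (SE 0.790) with groups that overlapped, and Rpl23, Rps14 and Rpl7 followed at -0.89, -0.77 and -0.76.

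Rps4l, a paralog of the X-linked Rps4x, was the higher locus. Its FPKM was 7.87, 18.2 and 9.21 in the PBS tumors, 17.5, 15.4 and 10.1 in the nonresponsive tumors and 20.1, 25.6 and 19.9 in the responsive tumors. The responsive tumors lay above both other groups. The difference from PBS was 0.92 (SE 0.321, limma adjusted p = 0.25). Rps4x itself had a mean of 1636 ± 331 in the PBS tumors and 1163 ± 511 in the responsive tumors.

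Rpl8 was 0.32 higher than in PBS tumors (SE 0.225, limma adjusted p = 0.41). Rps20 was 0.46 higher (SE 0.873), a difference that turned to -0.18 without responsive replicate 2. Rpl36al and Rps29 were 0.10 higher each, with SE of 0.229 and 0.349, and both turned negative without responsive replicate 2 and when entries were rescaled to a common named sum.

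This count and the median also moved with single tumors. Without responsive replicate 2, 15 loci were lower at an unadjusted p under 0.05 (22.1% of all loci were) and 63 did not overlap (38.6%), with a median of -0.66. The median was -0.11 without responsive replicate 1, -0.20 without PBS replicate 1 and -0.51 without PBS replicate 2, and -0.20 with median-of-ratios scaling, where 16 of the 77 loci were higher. Without PBS replicate 1, PBS replicate 3, responsive replicate 1 or responsive replicate 3 in turn the count was 0.

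The last comparison, of responsive with nonresponsive tumors, asked what set apart the antibody-treated tumors of small and large size. The median difference of the 77 loci was 0.23, against -0.07 over all 12716 loci tested, and 73 of the 77 were higher in the responsive tumors, where 41.8% of all loci were. For only 4 loci did the difference exceed the larger of the group SDs. The median turned to -0.02 without nonresponsive replicate 1 and to -0.10 without responsive replicate 2, was 0.49 without nonresponsive replicate 3 and 0.48 without responsive replicate 1, and was 0.03 when entries were rescaled to a common named sum, which moved the median of all loci to -0.25.

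No locus passed an adjusted p of 0.05 in limma, where the smallest was 0.84 and 0.0629% of all loci passed, and 0 passed an unadjusted p of 0.05 in either direction, where 4.36% of all loci were higher and 1.56% lower. The ordinary test per locus also found 0 at that level. Without nonresponsive replicate 1 or responsive replicate 1 the count at an unadjusted p under 0.05 was 1. The responsive tumors lay above all nonresponsive tumors for Rpl8, Rpl15 and Rps4l, where 5.69% of all loci did, and below them for 0 loci, where 4.78% did.

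Rps4l differed by 0.60 (SE 0.253, limma adjusted p = 0.84) and Rpl8 by 0.54 (SE 0.306). Rps20 had the largest difference, 1.37 (SE 0.802), with overlapping groups. Rpl37a and Rpl38 differed by 0.56 (SE 0.374) and 0.51 (SE 0.569). On the negative side Rps15a differed by -0.52 (SE 0.612), and Rps6, Rpl6l and Rpl6 by -0.11, -0.02 and -0.01, with signs that turned in several fits without 1 tumor.

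**Figure D4:**
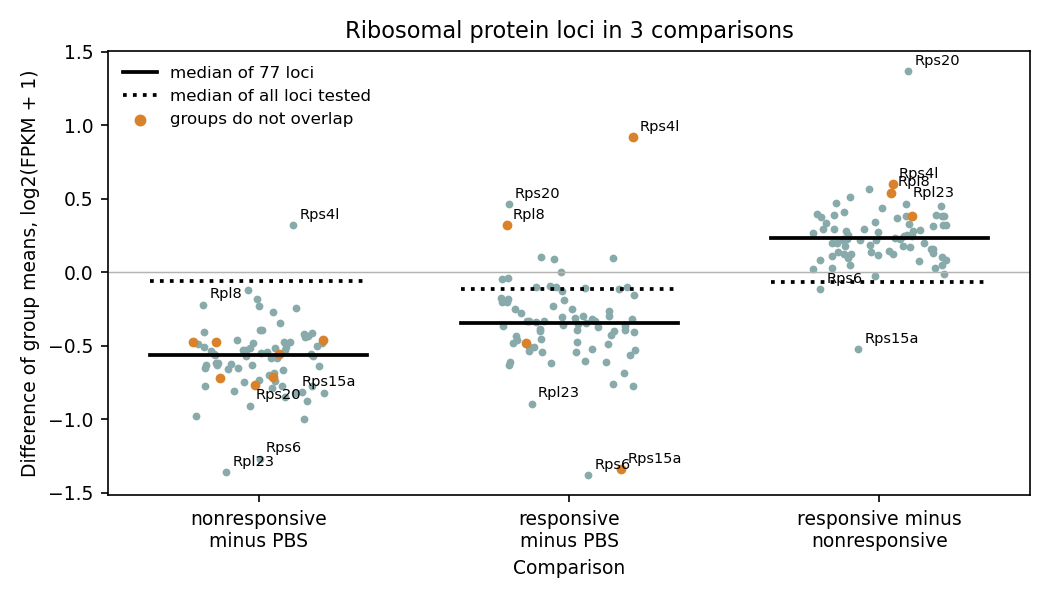
Difference of group means of log2(FPKM + 1) for 77 ribosomal protein loci in 3 comparisons. Points are loci, orange where the 3 tumors of one group do not overlap the 3 of the other; solid lines are the medians of the 77 loci (-0.56, -0.34 and 0.23) and dotted lines those of all loci tested (-0.06, -0.11 and -0.07).

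The ratio within paralog pairs varied for 3 pairs and was nearly fixed for another. Rpl36al held 24.3%, 50.5% and 41.4% of the FPKM of Rpl36a in the PBS tumors, 78.6%, 64.1% and 46.0% in the nonresponsive tumors and 77.7%, 40.9% and 69.5% in the responsive tumors. The locus of Rpl36al also held Dnaaf2, Pole2 and predicted genes, so these shares are not those of Rpl36al alone. Rps27l held 7.48% to 13.9% of Rps27, with the lowest share in responsive replicate 2 and the highest in responsive replicate 1. Rps4l held 0.396% to 2.88% of Rps4x. Rpl22l1, a paralog outside the name rule, held 17.9% to 21.8% of Rpl22 and so moved nearly in step with it. The shares of Rps4l and of Rpl22l1 were higher in all responsive than in all PBS tumors, at 1.47% to 2.66% against 0.396% to 1.36% and at 21.1% to 21.4% against 17.9% to 20.7%. In the other comparisons of groups these 4 ratios overlapped. No test was run on them.

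Fau, a ribosomal protein made as a fusion to a ubiquitin-like protein, lies outside the name rule. It had an FPKM of 2583, 2022 and 2434 in the PBS tumors, 1494, 1830 and 2214 in the nonresponsive tumors and 1392, 3557 and 2343 in the responsive tumors, again low in nonresponsive replicate 1 and responsive replicate 1.

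Other genes of translation were set beside the ribosomal proteins by lists fixed by name. The 21 elongation factors and other TOP mRNAs outside the ribosome were low and high in much the same tumors as the members. The median of the 19 of them that reached an FPKM of 1 in every tumor lay at 0.61, 0.10 and 0.43 in the PBS tumors, -0.85, -0.05 and 0.25 in the nonresponsive tumors and -0.78, 0.45 and -0.24 in the responsive tumors. Eef1a1, the factor that delivers aminoacyl-tRNA, had an FPKM of 6695, 4978 and 5850 in the PBS tumors, 2384, 4615 and 5302 in the nonresponsive tumors and 3335, 6594 and 4126 in the responsive tumors. Rack1, a scaffold protein bound to the small subunit, ranged from 473 in nonresponsive replicate 1 to 2205 in PBS replicate 1. In this list 1 locus, Eif3f, had an unadjusted p under 0.05 against PBS, with differences of -1.45 (SE 0.440) in the responsive and -1.20 (SE 0.355) in the nonresponsive tumors. At that level 10% and 1.66% of all loci were lower, in the same order. The long noncoding TOP transcript Gas5 was listed at 0 in 4 tumors and lay between 198 and 460 in the other 5.

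Genes that assemble ribosomes showed the same low tumors and, of the high ones, shared PBS replicate 1 but not responsive replicate 2. Nucleolar and biogenesis loci had their median lowest in responsive replicate 1 (-0.80) and nonresponsive replicate 1 (-0.69) and highest in PBS replicate 1 and nonresponsive replicate 3 (both 0.53), while responsive replicate 2 lay at 0.11. In responsive against PBS tumors 11 of the 50 were lower at an unadjusted p under 0.05 (where 10% of all loci were) and 0 passed adjustment, among them Nmd3, the export adaptor of the large subunit (-1.04, SE 0.243), Wdr75 (-0.87, SE 0.234) and Ebna1bp2 (-0.89, SE 0.271). In the other 2 comparisons 0 of the 50 reached that level. The most abundant of this list were Ncl, Fbl and Npm3.

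RNA polymerase I loci and initiation factors varied within narrower limits. Their medians ran from -0.52 to 0.52 and from -0.47 to 0.37, and in responsive against PBS tumors 1 of 14 and 3 of 31 were lower at an unadjusted p under 0.05, where 10% of all loci were. The 1 RNA polymerase I locus was that of Taf1d, which joins 9 genes. It was listed at 0 in nonresponsive replicates 1 and 2 and responsive replicates 1 and 3, which can be a failed estimate. Eif4ebp2, an inhibitor of cap-dependent initiation, was the 1 initiation gene that was higher at that level (0.38, SE 0.155). The mitochondrial ribosomal proteins, which serve the separate ribosome of the mitochondrion, ran only from -0.26 to 0.21. In responsive against PBS tumors 5 of these 75 were higher and 2 lower at an unadjusted p under 0.05, where 9.12% and 10% of all loci were. One, Mrpl27, passed the adjusted test, with all PBS tumors listed at 0, which can be a failed estimate.

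**Figure D5:**
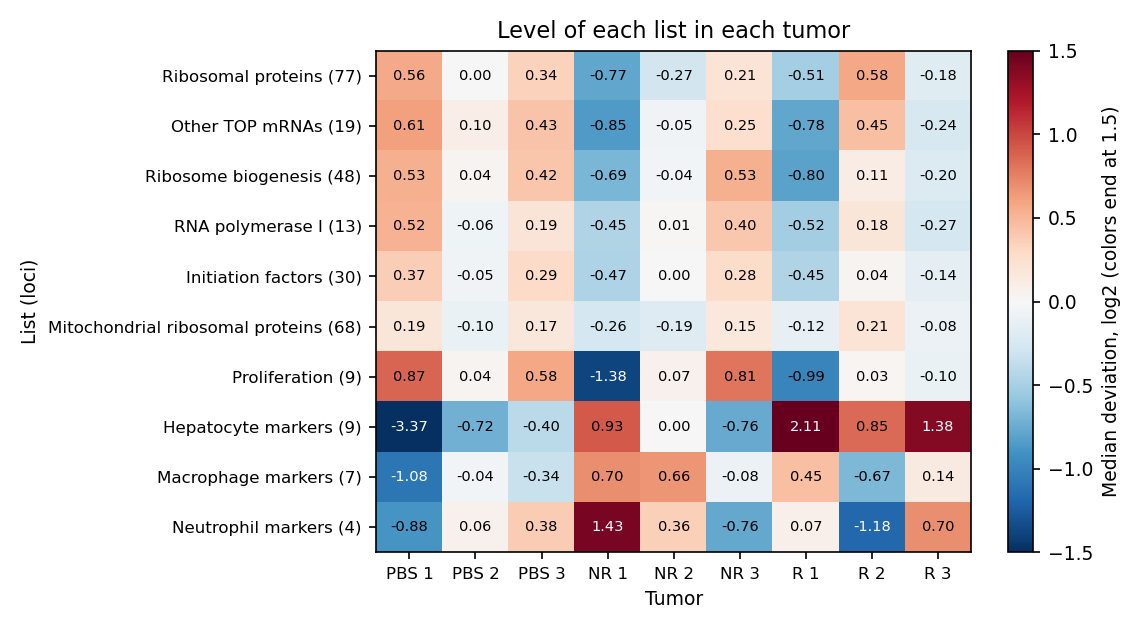
Median deviation of the loci of 10 lists from their own means over the 9 tumors, in log2(FPKM + 1), by tumor (NR, nonresponsive; R, responsive), with the number of loci in parentheses. Ribosomal proteins, other TOP mRNAs and biogenesis genes are low in NR 1 and R 1, and hepatocyte markers are lowest in PBS 1 (-3.37) and highest in R 1 (2.11).

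Markers of proliferation were low in the same tumors as the ribosomal proteins, and those of other cells followed other patterns. All 9 proliferation loci that reached an FPKM of 1 in every tumor were lower in nonresponsive replicate 1 and responsive replicate 1 than in the other 7 tumors. The same held for 28% of all 10188 loci at that level. The median of the proliferation loci ran from -1.38 to 0.87. All 10 hepatocyte markers were detected, and their summed FPKM was 473 to 4128 in the PBS, 2807 to 9947 in the nonresponsive and 8937 to 19496 in the responsive tumors. The 8 macrophage markers summed to 715 to 1513, 1366 to 2276 and 1221 to 2175, and the 6 neutrophil markers to 1005 to 2634, 1177 to 5381 and 1053 to 3574, in the same order. The 8 T cell markers summed to 58.7 to 172, 100.2 to 127 and 138 to 189, and the 6 fibroblast markers to 2501 to 3971, 2757 to 4685 and 2437 to 2565. For both sums, responsive and nonresponsive tumors did not overlap. Taken singly, 3 of the 8 T cell markers were higher in responsive tumors without overlap, where 5.69% of all loci were. Of the 6 fibroblast markers 0 were lower without overlap, where 4.78% of all loci were. The T cell sum includes the Trac locus, which joins 48 genes. The B cell genes Cd79a, Cd79b, Ms4a1, Cd22 and Pax5 were each higher in responsive than in nonresponsive tumors at an unadjusted p under 0.05. At that level 4.36% of all loci were higher. For all of these genes but Cd79b the groups did not overlap, where 5.69% of all loci were higher without overlap. None of them passed adjustment (limma adjusted p = 0.83 for each). Ms4a1, which encodes CD20, lay between 0.125 and 7.76 in the PBS, 2.85 and 4.89 in the nonresponsive and 6.14 and 28.0 in the responsive tumors. Pancreatic acinar markers summed to 999 in nonresponsive replicate 2 and to at most 63.3 elsewhere, and skeletal muscle markers to 316 in nonresponsive replicate 3 and at most 136 elsewhere. Of the 5 markers of the tumor line Igf2bp3 and Dlk1 were at 0 in at least 1 tumor, and the list summed to 11.4 to 103. Afp was lowest in nonresponsive replicate 1 and responsive replicate 1, at 0.321 and 0.646. The other markers of this list each had their lowest value in another tumor. The part of these cells in the ribosomal protein values was not tested.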

How the data were processed

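RNA of 9 whole tumors was extracted with Trizol, made into libraries with an Illumina TruSeq kit and sequenced by Novogene. The authors deposited 1 table of FPKM values per tumor, made with Cufflinks, normalized for transcript length and mapped fragments, with transcripts assembled per tumor. The submitters' processing notes name TopHat2 2.1.1, Bowtie2 2.2.4 and mm8, and since positions in the tables do not match that build, no position of the tables is given. Their table of group comparisons holds fold changes and p-values, and was not used. Depth is unknown, as no counts were used here. The upper confidence bound of ribosomal protein entries with an FPKM of at least 100 lay a median of 4.25% to 4.68% above the value, by tumor.

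Genes that shared an entry in any tumor were joined into 1 locus and summed. Groups were taken from the labels and compared with limma 3.58.1 in R 4.3.3 (lmFit, eBayes with trend) on log2(FPKM + 1) over the 6 tumors of each comparison, keeping loci where 3 or more tumors reached an FPKM of 1. The p-values of all these loci were adjusted by Benjamini and Hochberg's method. A fold change on this scale understates changes of low genes. Each p-value measures the spread between 3 tumors a group. The fit was tested on simulated data. Named loci were those with an unadjusted p under 0.05, the 5 largest differences in each direction, the 8 most and 5 least abundant loci, paralog pairs, and loci whose groups did not overlap. The members and lists were chosen with earlier results of these data known. No more than 0.00634% of loci had identical values in any pair of tumors. Tables were handled in Python 3.11.15 with pandas 2.3.3 and drawn with matplotlib 3.10.9. Start-site sequence was taken by symbol from RefSeq. Alternatives changed the pseudocount, filter, scaling, test, tumors in the fit and joining of entries. The list of ribosomal proteins with other names and the summed level of B cell markers are not reported here.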

Additional observations from a re-analysis of the deposited data

How the results depend on the processing

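Under every alternative run, 0 ribosomal protein loci passed an adjusted p of 0.05, and the median differences of these loci moved by less than the pooled SD of the tumor levels of both groups, though that of responsive against nonresponsive tumors turned in sign without nonresponsive replicate 1 or responsive replicate 2. The SDs of these 2 groups, 0.56 and 0.49, were larger than that median difference of 0.23, so this bound is wide and lets a turn in sign pass. Of 415 values of 26 named fold changes, 397 kept their direction and side of the threshold and 18 turned in direction. Counts below are given for nonresponsive against PBS, responsive against PBS and responsive against nonresponsive tumors, in that order where 3 are given. The cause was not tested where a count moved.

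Replicate numbers only name the tumors. Deviations of same-numbered tumors from their group means correlated between -0.63 and 0.75 over 10188 loci, and the labels give no shared animal or batch. With the replicate block, 0, 0 and 0 of all loci were called at an adjusted p of 0.05, in place of 5, 19 and 8, and ribosomal protein loci at an unadjusted p under 0.05 numbered 0, 1 and 0, in place of 2, 2 and 0, while all loci at that level numbered 215 and 989 in the comparisons with PBS.

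Without a filter, 3 loci (nonresponsive against PBS) and 0 loci (responsive against nonresponsive) of all were called, 789 had an unadjusted p under 0.05 in the first, and ribosomal protein loci at that level numbered 0, 1 and 2. With a filter at an FPKM of 5, 3, 5 and 1 of all loci were called, 243 had an unadjusted p under 0.05 in the first comparison, and 1 ribosomal protein locus did in the last. With all 9 tumors in 1 fit 3 and 7 of all loci were called in the comparisons with PBS, with the ordinary test 3 in the last, and with sums per gene 11, 33 and 15. Ribosomal protein loci at an unadjusted p under 0.05 numbered 1 and 1 in the comparisons with PBS with named entries rescaled to a common sum, 1 in responsive against PBS with the ordinary test, 1 in the last comparison with median-of-ratios scaling, and 0 in nonresponsive against PBS among members named alone. Another scaling moved the median of all loci by over 0.1 in some comparisons. With named entries rescaled to a common sum this median was -0.25 in both comparisons of responsive tumors. With median-of-ratios scaling it was 0.01 in responsive against PBS tumors.

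Leaving out each tumor in turn, all loci called ranged from 0 to 18, 0 to 22 and 0 to 14, those with an unadjusted p under 0.05 from 174 to 1960, 1041 to 3998 and 305 to 1428, and ribosomal protein loci at that level from 0 to 29, 0 to 15 and 0 to 1. The share of FPKM over all entries was 9.84% in PBS, 4.10% in nonresponsive and 8.71% in responsive tumors, and of members named alone 11.9%, 8.19% and 8.27% in the same order.

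For responsive against nonresponsive tumors Rps6 ranged from -0.95 to 0.63, Rpl6l from -0.31 to 0.31 and Rpl6 from -0.33 to 0.27 without 1 tumor. Rpl6l was 0.0079 and 0.031 and Rpl6 0.031 and 0.064 with upper-quartile and median-of-ratios scaling. Against PBS Rps29 ranged from -0.22 to 0.30, Rpl36al from -0.057 to 0.217 and Rps20 from -0.18 to 1.33 without 1 tumor, and Rps29 and Rpl36al were -0.056 and -0.049 with named entries rescaled to a common sum.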

Other observations

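The 16 regulators of ribosomal protein output were a further list. Myc, the transcription factor that raises ribosome genes, had an FPKM of 63.9, 40.2 and 45.03 in the PBS tumors, 7.88, 40.8 and 54.5 in the nonresponsive tumors and 8.71, 47.5 and 25.6 in the responsive tumors. It was lowest in nonresponsive replicate 1 and responsive replicate 1, the tumors in which most ribosomal protein loci were low. Of the 10188 loci at an FPKM of 1 or more in every tumor, 28% were also lower in these tumors than in all others. A link between Myc and the ribosomal protein levels was not tested. Mdm2, the ligase that Rpl5 and Rpl11 bind, ran from 23.3 in responsive replicate 1 to 189 in nonresponsive replicate 3. Larp1, which binds TOP mRNAs, was lower in responsive than in PBS tumors at an unadjusted p under 0.05 (-0.63, SE 0.245, limma adjusted p = 0.26), as were Trp53 (-1.06, SE 0.346), Larp4 (-0.98, SE 0.338) and Rps6kb1 (-0.42, SE 0.169), the S6 kinase that phosphorylates Rps6. At that level 10% of all loci were lower, and 0 regulators passed adjustment in this comparison. Mtor, the kinase at the head of this pathway, lay between 4.67 and 6.18 in all tumors. Rps6kb2 was listed at 0 in 5 tumors and lay between 10.4 and 13.6 in the other 4, which include all responsive tumors. It was the 1 regulator that passed an adjusted p of 0.05 in responsive against nonresponsive tumors, and a listed 0 can be a failed estimate.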
